A study of Mus musculus with 6 samples.

Results

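Autophagy and lysosome genes were examined in the livers of male BALB/c mice that had been kept alone or as controls. The set comprised 36 named genes of autophagosome initiation, conjugation, cargo selection and lysosomal digestion, and a gene was followed through each probe set whose platform annotation gave its symbol alone. By that rule 34 of the 36 genes were found, among 18193 genes with such a probe set, and they were read by 84 probe sets. Optn, a cargo receptor, had no matching probe set in the annotation used here, and Bnip3l, a mitophagy receptor, was read only by probe sets that also carried another symbol, so neither has a value.

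Per the labels, liver RNA of 3 control samples and 3 samples from mice isolated for 30 days was hybridised to Affymetrix mouse arrays, 1 array per sample, and all animals were 10 weeks old. They entered the study at 4 weeks of age in cages of 5, and isolation began after 10 days of acclimatization. Isolated mice lived 1 per cage with less bedding than controls, every cage stood in a foam box, and food and water were free in both groups, while the hour of sampling is not given in the sources used here. The isolated group therefore combined single housing with reduced bedding, and the labels do not say whether each array came from a separate mouse, so the spread between arrays may be partly technical.

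Autophagy delivers cytoplasm, organelles and lipid droplets to lysosomes for digestion. The ULK kinase complex and a class III phosphatidylinositol 3-kinase complex start the membrane, a pair of ubiquitin-like conjugation systems attach ATG8 proteins (the LC3 and GABARAP families) to it, receptors such as p62 bring in cargo, and lysosomal proteases and lipases break it down. In liver the process is known to be raised by fasting and restrained by feeding through the kinase mTORC1, and the transcription factors TFEB, FOXO and PPARalpha are known to induce many of its genes.

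None of the 34 genes was called higher or lower in isolated mice. The RNA came from whole liver, in which fewer cells of a type and less RNA per cell cannot be told apart. Values are MAS5 signals, a linear brightness per probe set, and changes are isolated minus control on the log2(signal + 2) scale, which understates the change of dim probe sets. A call required a limma p under 0.05 after Benjamini-Hochberg adjustment over 22519 tested probe sets, and a gene was represented by its tested probe set with the highest mean. Among all 10986 genes with a tested probe set, 0.901% were called higher and 0.847% lower, and both shares are small for a set of this size. At an unadjusted limma p under 0.05, 0 members were higher and 4 were lower (Atg2a, Map1lc3a, Gabarapl1 and Bnip3), against 7.94% higher and 4.4% lower of all genes. The median log2 change of the 34 was -0.04, against 0.05 over all genes, and 20 (of 34) lay below 0, against 41.6% of all genes.

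The roles differed little in their medians. The median log2 change was -0.01 for the 9 initiation genes, -0.08 for the 15 conjugation genes, -0.07 for the 3 measured cargo receptors and -0.02 for the 7 lysosome genes. With median centring of the arrays the median of all 34 members was 0.01 (0.09 over all tested probe sets), and with quantile normalization it was -0.07 (0.01 over all), so its sign depended on the scaling while it stayed under the overall median. The groups did not overlap for 3 members, Pik3r4, Atg2a and Bnip3, each with every isolated array below every control, while 5.17% of all genes separated in that direction. No member separated upward, against 10.8% of all genes. The 95% interval of the log2 change lay within 0.5 of 0 for 17 of 34 members, 6 of the 7 lysosome genes among them, against 26.2% of all genes. For the other 17 a change of 0.5 in at least 1 direction lay inside the interval. The median half-width of the interval was 0.37 for the members and 0.29 for the 7 lysosome genes, against 0.43 over all genes. The share within 0.5 of 0 thus depends on interval width as well as on the size of the changes.

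**Figure D1:**
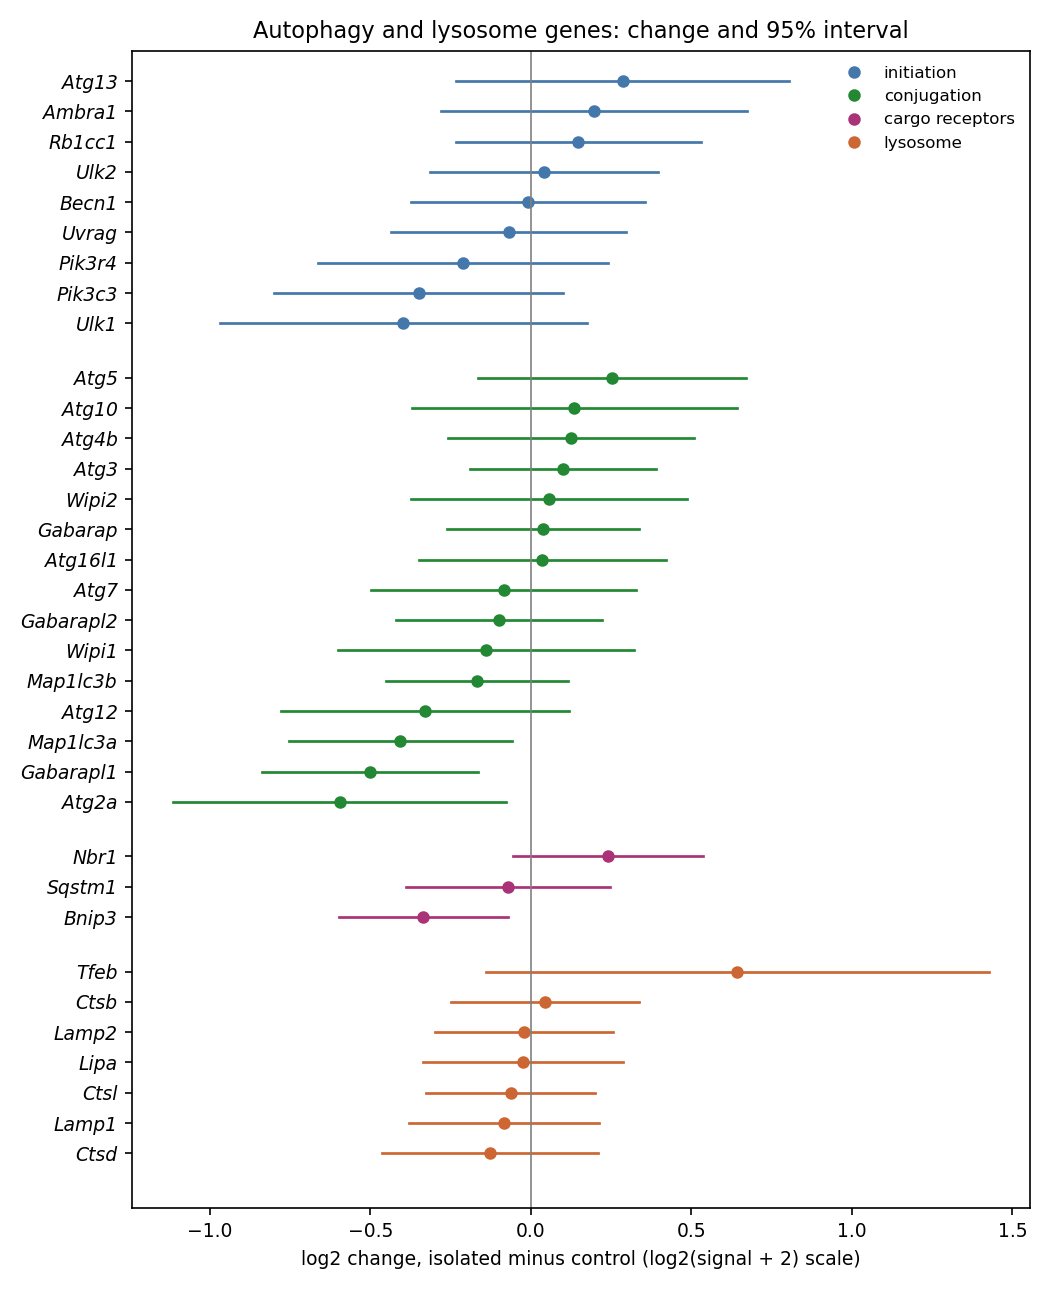
Log2 change (isolated minus control) of the probe set that represents each of the 34 genes, with its 95% interval from the limma fit, grouped and coloured by role. Intervals of Atg2a, Gabarapl1, Map1lc3a and Bnip3 lie wholly below 0 before adjustment, and the lysosome genes other than Tfeb lie within 0.5 of 0.

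None of the 9 initiation genes passed, and they lay on both sides of 0. Of the 4 ULK complex genes 3 lay above 0, and of the 5 genes of the phosphatidylinositol 3-kinase complex 4 lay below. Ulk1, the kinase that mTORC1 inhibits and that starts autophagosome formation, read 225, 187 and 188 under control housing and 145, 86.9 and 271 on isolated replicates 1, 2 and 3. The isolated arrays thus spanned the control range, with replicates 1 and 2 below it and replicate 3 above it. Its log2 change was -0.40 (95% interval -0.97 to 0.18, limma adjusted p 0.673), and it was -0.0061 without isolated replicate 2 and -0.81 without isolated replicate 3. The second probe set of Ulk1 read 75.4, 51.4 and 71.6 against 46.6, 27.4 and 52.1, a log2 change of -0.66 with an adjusted p of 0.307.

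The probe sets of Atg13, a regulatory subunit of the ULK complex, went opposite ways. The one that represents the gene read 57.3, 84.7 and 122 under control housing and 86.6, 95 and 132 after isolation, a log2 change of 0.29 (adjusted p 0.766) that was 0.017 without control replicate 1, 0.11 without isolated replicate 3 and 0.55 without control replicate 3. A dimmer one read 46, 48.5 and 43.5 against 37.2, 21.7 and 23.5, a log2 change of -0.74 (adjusted p 0.274), with no overlap between groups. The remaining Atg13 probe set also separated downward, at -0.30 (adjusted p 0.667), so the direction of Atg13 rests on the probe set chosen. The kinase paralog Ulk2 and the scaffold Rb1cc1 had log2 changes of 0.04 and 0.15.

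Pik3c3, the catalytic subunit that makes phosphatidylinositol 3-phosphate, read 75.9, 65 and 82.9 under control housing and 57.6, 65.7 and 51.2 after isolation. Its log2 change was -0.35 (95% interval -0.80 to 0.10, adjusted p 0.61), and isolated replicate 2 lay inside the control range. Pik3r4, the regulatory subunit that carries it, read 63.1, 57.8 and 65.4 against 56, 51.8 and 52.1. These ranges did not overlap, but the difference was small, at -0.21 with an adjusted p of 0.811. Becn1 and Uvrag, subunits of the same complex, had log2 changes of -0.01 and -0.07, and the adaptor Ambra1 had 0.20. All 4 tested probe sets of Becn1 gave adjusted p of 0.631 or more.

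Among the conjugation enzymes and scaffolds, 5 of 7 genes lay above 0 and 0 passed. Atg5, which joins Atg12 to form the ligase for LC3, read 246, 172 and 293 under control housing and 284, 239 and 310 after isolation on its brightest probe set (log2 change 0.25, adjusted p 0.728). Another Atg5 probe set read 151, 118 and 136 against 170, 188 and 165. That probe set separated the groups upward, at 0.37 with an adjusted p of 0.47, and all 3 Atg5 probe sets lay above 0. Atg12 itself read 143, 136 and 196 against 109, 104 and 166, a log2 change of -0.33 (adjusted p 0.646). The E2-like enzyme Atg3, the E1-like Atg7, the E2-like Atg10, the protease Atg4b and the scaffold Atg16l1 had log2 changes of -0.08 to 0.14.

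Atg2a, which moves lipid into the growing membrane, gave the lowest log2 change of all 34 genes. It read 69.1, 71.8 and 85.3 under control housing and 58.6, 32.6 and 61.4 after isolation. Every isolated array lay below the controls, with replicate 2 lowest by a wide margin. The log2 change was -0.60 (95% interval -1.11 to -0.08, a 1.51-fold difference), and it did not pass, with an unadjusted p of 0.0266 and an adjusted p of 0.339. Without isolated replicate 2 it was -0.31. Wipi1, a phosphatidylinositol 3-phosphate effector, read 136, 128 and 161 against 110, 103 and 187. Isolated replicate 3 was the highest of all its arrays and replicates 1 and 2 the lowest, and the log2 change was -0.14 (adjusted p 0.898). Its paralog Wipi2 had 0.06, while a dim Wipi2 probe set read 23.6, 36.9 and 45.5 against 23.1, 20.6 and 20.8 (log2 change -0.62, adjusted p 0.511).

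Members of the ATG8 family, the ubiquitin-like proteins that are joined to the autophagosome membrane, held the smallest adjusted p of the set. Gabarapl1 read 2184, 1970 and 2499 under control housing and 1463, 1271 and 2037 after isolation. Isolated replicates 1 and 2 lay below every control, and replicate 3 lay between control replicates 2 and 1. The isolated level was 1.41-fold lower (2218 ± 266 against 1591 ± 399, SD, n = 3 per group), with a log2 change of -0.50 (95% interval -0.84 to -0.16), an unadjusted p of 0.0057 and a limma adjusted p of 0.155. Its second probe set read 1276, 1199 and 1724 against 943, 805 and 1257 and gave -0.49 (adjusted p 0.22). Gabarapl1 passed with quantile normalization (adjusted p 0.0466) and without isolated replicate 3 (0.0293, log2 change -0.69).

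Map1lc3a read 891, 1179 and 1119 under control housing and 854, 638 and 925 after isolation, a log2 change of -0.41 (95% interval -0.75 to -0.06, adjusted p 0.323). Control replicate 1 and isolated replicate 3 overlapped. Its second probe set gave -0.45 (adjusted p 0.399). Map1lc3b, the LC3 form most used as a marker of autophagosomes, read 2201, 2672 and 2967 against 2235, 2262 and 2439, a log2 change of -0.17 (adjusted p 0.739). Its 2 other tested probe sets gave -0.30 and -0.34 (adjusted p 0.464 and 0.407), so all 7 tested probe sets of Gabarapl1, Map1lc3a and Map1lc3b lay below 0.

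The remaining ATG8 genes lay closer to 0. Gabarap read 1713, 1606 and 1981 under control housing and 1847, 1556 and 2048 after isolation, a log2 change of 0.04 (95% interval -0.26 to 0.34). Gabarapl2 read 600, 569 and 703 against 580, 564 and 595, a log2 change of -0.10 (95% interval -0.42 to 0.22). Within the family 4 of 5 genes lay below 0, also with median centring and with quantile normalization. Whether Gabarapl1 differed from Gabarap in its response was not tested.

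**Figure D2:**
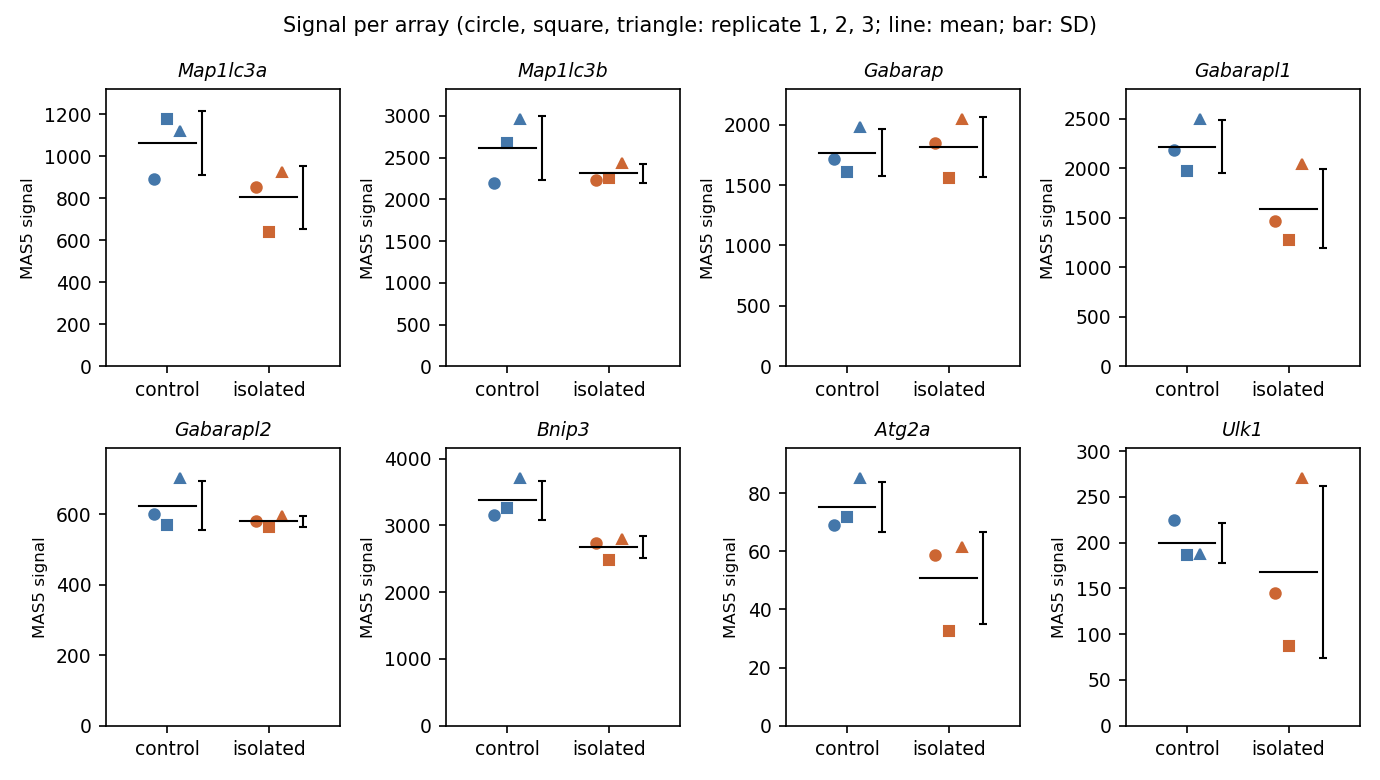
MAS5 signal on each array for the 5 ATG8 family genes and for Bnip3, Atg2a and Ulk1, in controls and isolated mice. Symbols mark replicates 1 to 3, the line the mean and the bar the SD. Bnip3 and Atg2a separate the groups, Gabarapl1 overlaps through isolated replicate 3, and Gabarap and Gabarapl2 overlap widely.

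Of the cargo receptors, Bnip3, a mitochondrial receptor for mitophagy that hypoxia and FOXO factors are known to induce, separated the groups. It read 3156, 3260 and 3712 under control housing and 2737, 2484 and 2801 after isolation (3376 ± 295 against 2674 ± 167, SD, n = 3 per group). The isolated level was 1.26-fold lower, a log2 change of -0.33 (95% interval -0.60 to -0.07) with an adjusted p of 0.256. It passed with quantile normalization alone among the alternatives (adjusted p 0.0249). Nbr1, a receptor for ubiquitinated cargo, went the other way, with 1313, 1299 and 1490 against 1544, 1467 and 1854 and a log2 change of 0.24 (adjusted p 0.582). Isolated replicate 2 lay just inside the control range of Nbr1. Sqstm1, which encodes p62, read 1421, 1792 and 2039 against 1526, 1542 and 1897, a log2 change of -0.07 (95% interval -0.39 to 0.25).

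None of the 7 lysosome genes passed. Tfeb, the transcription factor that turns on lysosome genes, had the highest log2 change of all members, but on a dim probe set. It read 16.1, 35.3 and 80.9 under control housing and 74.2, 47.7 and 54.4 after isolation, so the controls alone spanned the isolated values. The log2 change was 0.64 with a 95% interval of -0.14 to 1.43 (adjusted p 0.58). It was 0.10 without control replicate 1 and 1.20 without control replicate 3. Ctsd, the aspartic protease cathepsin D, read 634, 754 and 754 against 655, 553 and 763, a log2 change of -0.13 (95% interval -0.46 to 0.21, adjusted p 0.863).

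The other 5 lysosome genes had log2 changes between -0.08 and 0.04. These were the membrane proteins Lamp1 and Lamp2, the cysteine proteases Ctsb and Ctsl, and Lipa, the acid lipase that digests the lipid of engulfed droplets. Lamp1 read 2896, 2716 and 3513 under control housing and 3021, 2400 and 3204 after isolation, with a 95% interval of -0.38 to 0.21. Lipa read 788, 903 and 875 against 942, 760 and 827, with an interval of -0.33 to 0.29. The groups overlapped for both genes.

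To show the sequence context of the lysosome genes, promoters were searched on both strands for CACGTG, the E-box core that TFEB binds, for its longer form TCACGTG (which contains the core, so the counts overlap), and for the forkhead site GTAAACA. Promoters of 300 bases, 250 before to 50 after the start, came from RefSeq (build GRCm38.p6) and were matched by symbol for 28 of the 36 genes, with 31 promoters in all. CACGTG stood in 7 of the 31 (22.6%), against 7.15% of all 32851 promoters, and TCACGTG in 4 (12.9%), against 3.77%. GTAAACA stood in 0 of the 31, against 3.65%, and other forms of the forkhead site were not searched. The 2 lysosome genes with TCACGTG are printed with Gabarapl1, which was added after its values were seen and holds none of the 3 motifs. Capitals mark the motif letters. The Lamp1 window is chr8:13158911-13159210 on the plus strand, that of Ctsd chr7:142387778-142388077 on the minus strand, and that of Gabarapl1 chr6:129532942-129533241 on the plus strand.
Lamp1: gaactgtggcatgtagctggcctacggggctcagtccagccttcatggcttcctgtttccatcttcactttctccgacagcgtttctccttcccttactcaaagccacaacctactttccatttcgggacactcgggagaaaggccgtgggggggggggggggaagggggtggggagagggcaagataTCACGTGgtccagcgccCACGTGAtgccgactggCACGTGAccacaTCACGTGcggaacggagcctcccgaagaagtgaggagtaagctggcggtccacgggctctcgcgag
Ctsd: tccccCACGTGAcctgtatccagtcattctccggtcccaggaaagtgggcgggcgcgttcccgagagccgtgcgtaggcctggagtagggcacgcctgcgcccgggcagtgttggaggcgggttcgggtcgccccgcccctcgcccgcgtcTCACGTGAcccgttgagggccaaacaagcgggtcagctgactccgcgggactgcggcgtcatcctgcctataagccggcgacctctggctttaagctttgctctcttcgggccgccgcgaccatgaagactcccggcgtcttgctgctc
Gabarapl1: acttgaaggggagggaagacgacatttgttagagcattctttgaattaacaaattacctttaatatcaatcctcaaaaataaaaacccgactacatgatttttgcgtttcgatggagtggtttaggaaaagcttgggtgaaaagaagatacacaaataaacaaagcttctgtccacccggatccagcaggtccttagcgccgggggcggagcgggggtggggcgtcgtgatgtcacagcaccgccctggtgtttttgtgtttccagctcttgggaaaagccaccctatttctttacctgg
Lamp1 holds the core 4 times, beginning 61, 45, 28 and 15 bases before the start, and Ctsd holds it 2 times, at 245 and 98 bases before. Their log2 changes, -0.08 and -0.13, were both near 0. A match is a description of letters in the window, and nothing on binding was measured here.

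Probe sets of 1 gene served as a check on these values. Of the 84 probe sets 73 passed the intensity filter, and each of the 34 genes kept at least 1. Among the 73, 0 were called, against 0.773% called higher and 0.857% called lower of all tested probe sets. At an unadjusted p under 0.05 there were 0 higher and 9 lower, against 6.89% and 4.53%. The groups separated upward on 1 probe set (Atg5) and downward on 6, against 9.62% and 5.79%. For 22 genes 2 or more probe sets were tested. In 13 of these they all lay on the same side of 0, 7 below and 6 above, and in 9 they lay on both sides. Probe sets of a gene share its RNA and are not replicates.

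**Figure D3:**
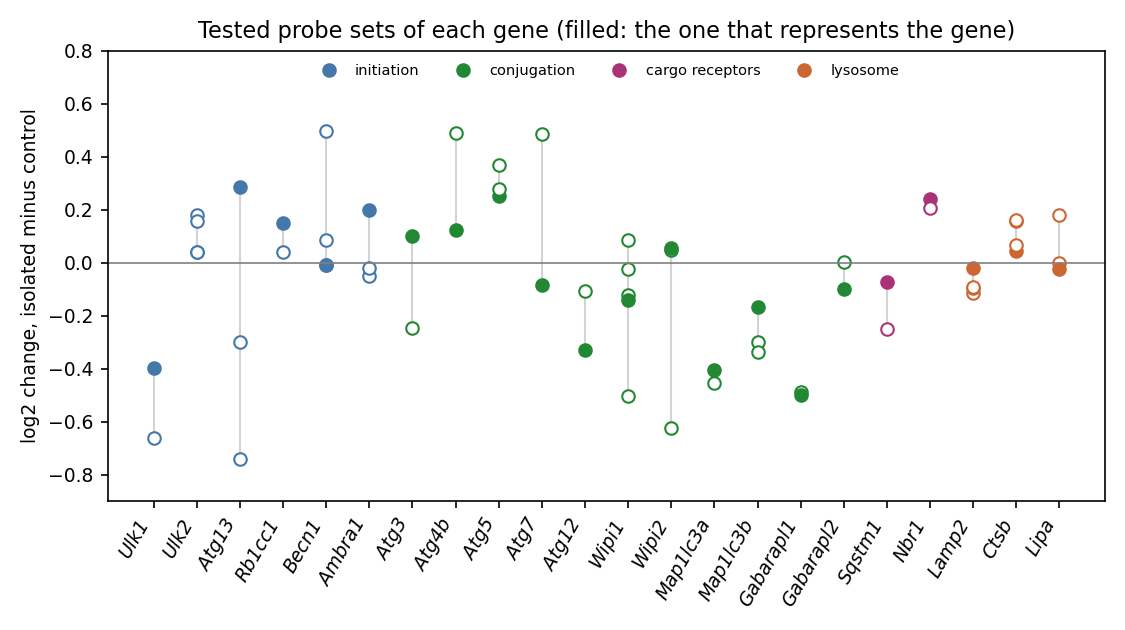
Log2 change (isolated minus control) of every tested probe set of the 22 genes with more than 1, coloured by role, with the representing probe set filled. The probe sets of Map1lc3a, Map1lc3b, Gabarapl1, Ulk1 and Lamp2 lie below 0, those of Ulk2, Atg5, Nbr1 and Ctsb above it, and those of Atg13 on both sides.

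Members and the whole array stood high or low on the same arrays in most cases. Relative to the control mean, the median log2 difference of the 34 genes was -0.05, -0.11 and 0.16 on control arrays 1, 2 and 3 and -0.07, -0.18 and 0.15 on isolated arrays 1, 2 and 3. Over all tested probe sets the same medians were -0.08, -0.05 and 0.14 and 0.03, -0.08 and 0.18. Control replicate 3 and isolated replicate 3 were thus bright for members and for the whole array alike, and the part of this in the comparisons was not tested beyond the scalings above. Trimmed mean signals lay between 92 and 110 on the 6 arrays.

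**Figure D4:**
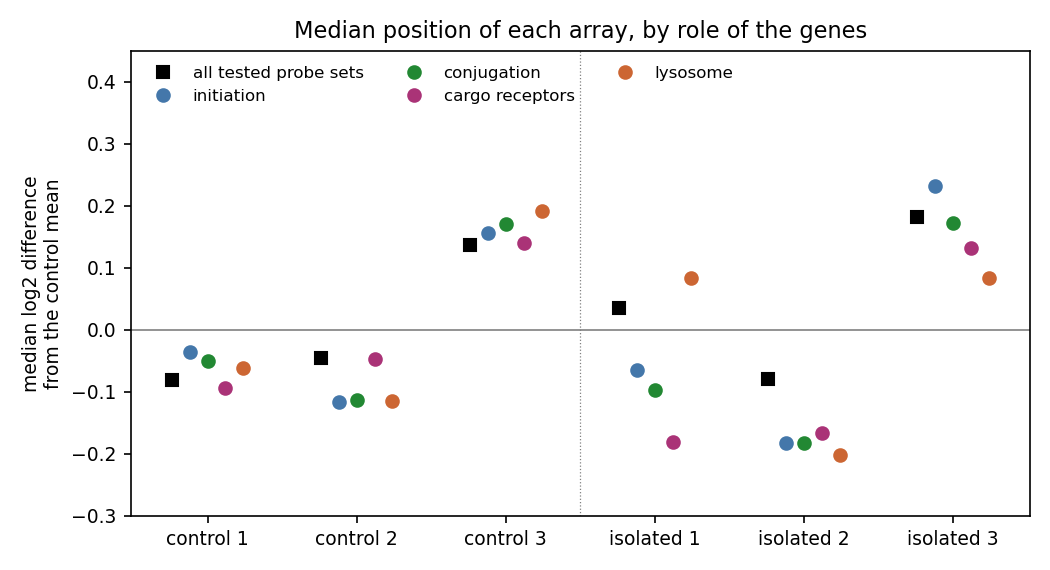
Median log2 difference from the control mean on each array, over all tested probe sets (squares) and over the genes of each role (circles). Both replicates numbered 3 sit above 0 and isolated replicate 2 sits below, for all tested probe sets and for the 4 roles.

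No tested marker gene of the cell types listed was called. Of the macrophage list, whose cells are rich in lysosomes, 11 of 12 genes were tested and 0 were called (Cd68 is also in the lysosomal membrane list). Of these 11, 8 lay below 0, against 41.6% of all genes, with a median log2 change of -0.17. The summed signal of all 12 ran from 3199 to 3757 in controls and from 2551 to 3688 after isolation, lowest on isolated replicate 2. The 7 measured hepatocyte markers summed to between 57472 and 61517 in controls and between 56571 and 60891 after isolation, and 0 of the 7 were called. Of the 7, 3 lay above 0 and 4 below. Tat alone had an unadjusted limma p under 0.05 (log2 change 0.50, p 0.0274, adjusted p 0.34), and its groups overlapped. The adipocyte list, with 6 of 8 genes measured, summed to between 160 and 266 in controls and to 244, 414 and 525 on isolated replicates 1, 2 and 3. Its brightest gene, Fabp4, which macrophages and endothelium also express, read 117, 202 and 157 against 203, 300 and 404, with every isolated array above the controls (log2 change 0.90, unadjusted p 0.00104, limma adjusted p 0.0578). A second Fabp4 probe set overlapped between groups, at 0.70 (adjusted p 0.491), and a dim one gave -0.02. Cidec, the other tested gene of the list, read 19.9, 32.8 and 22.9 against 20.5, 19 and 19.5 (log2 change -0.30, adjusted p 0.847). Adipoq, the defining gene, was too dim to be tested and read 4.38, 8.48 and 15.6 against 3.78, 59.5 and 54.8. Also untested, Retn read 2.39, 2.78 and 3.88 against 2.65, 20 and 42.2, and Cidea 13.1, 18.3 and 3.58 against 12.3, 14.6 and 1.76. Lep, untested too, did not exceed 3.31 on any array. Of the 7 tested stellate cell and fibroblast markers 6 lay above 0 and 2, Lrat (0.43) and Pdgfrb (0.63), had an unadjusted p under 0.05. The sum of all 8 listed stellate cell and fibroblast markers, tested or not, ran from 2747 to 3598 in controls and from 2950 to 3588 after isolation. All 6 endothelial markers lay below 0, as did the 2 tested neutrophil markers, of which dim S100a9 gave -1.09 (unadjusted limma p 0.027, adjusted p 0.339). S100a9 read 24.7, 23.4 and 36.1 under control housing and 24.9, 9.97 and 6.35 after isolation. It passed the intensity filter only through its controls. Without isolated replicates 2 and 3, 0 members were called. The part of these cells in the members' values was not tested. The 3′ to 5′ ratios of the Gapdh and b-Actin control probe sets differed by -0.03 and -0.04 log2 units between groups (exact permutation test, two-sided, p = 0.2 and 0.8, smallest possible 0.1).

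Beyond these members, 157 further autophagy and lysosome genes were listed, and 148 had a tested probe set. Of these 5 fell, 0 rose and 143 did not pass, and their median log2 change was -0.01. The 5 were Flcn, Fnip1, Ppara, Fkbp8 and Dnase2a, which is 3.38% of the list against 0.847% of all genes called lower.

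Flcn, Fnip1 and Ppara were in the list of 37 tested nutrient sensing and transcriptional regulators. Flcn encodes folliculin and Fnip1 its binding partner, which together act on the Rag GTPases that recruit mTORC1 and TFEB to the lysosome. Flcn read 349, 319 and 424 under control housing and 146, 79.8 and 217 after isolation, 2.62-fold lower (log2 change -1.39, 95% interval -1.92 to -0.86, limma adjusted p 0.00467). Its second tested probe set was also called, at -0.97 with an adjusted p of 0.0405. Fnip1 read 564, 629 and 836 against 344, 374 and 485, 1.68-fold lower (log2 change -0.75, adjusted p 0.0375). Neither gene overlapped between groups. The 2 other Fnip1 probe sets gave -0.60 and -0.52 and did not pass (adjusted p 0.118 and 0.301).

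Ppara, the fatty acid receptor that induces oxidation and autophagy genes in fasting, read 1411, 1396 and 1768 under control housing and 839, 749 and 1167 after isolation. It was 1.68-fold lower (log2 change -0.75, 95% interval -1.10 to -0.40, adjusted p 0.022), and a second probe set was called at -0.95 (adjusted p 0.00168). Fkbp8, an outer mitochondrial membrane protein that also serves as a mitophagy receptor, read 653, 666 and 561 against 359, 404 and 343. It was 1.69-fold lower (log2 change -0.76, adjusted p 0.0136), and the groups did not overlap. Dnase2a, the lysosomal DNase, read 1914, 3524 and 2308 against 1006, 496 and 1196, 2.96-fold lower (log2 change -1.57, adjusted p 0.000966). It rests on 1 probe set, whose suffix (_x_at) marks probes that can match other transcripts, as do those of the main Flcn and Map1lc3a probe sets.

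These 5 calls depended on the fit. When variances were moderated with no intensity trend, all 5 missed the threshold, at adjusted p between 0.169 and 0.268. A robust trend ended the calls of Dnase2a (0.292) and Flcn (0.119). Without a filter on dim probe sets Ppara (0.0931) and Fnip1 (0.0951) did not pass. Leaving out control replicate 3 ended the calls of Flcn (0.054), Ppara (0.124) and Fnip1 (0.176), and leaving out control replicate 2 those of Fkbp8 (0.078) and Fnip1 (0.0623). Leaving out control replicate 1 ended that of Fkbp8 (0.0702). Without isolated replicate 1 Ppara (0.0558) and Fnip1 (0.125) did not pass, nor did they without isolated replicate 2 (0.0642 and 0.0751). Without isolated replicates 2 and 3 together, a fit chosen after seeing the data, Fkbp8 did not pass (0.0655).

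**Figure D5:**
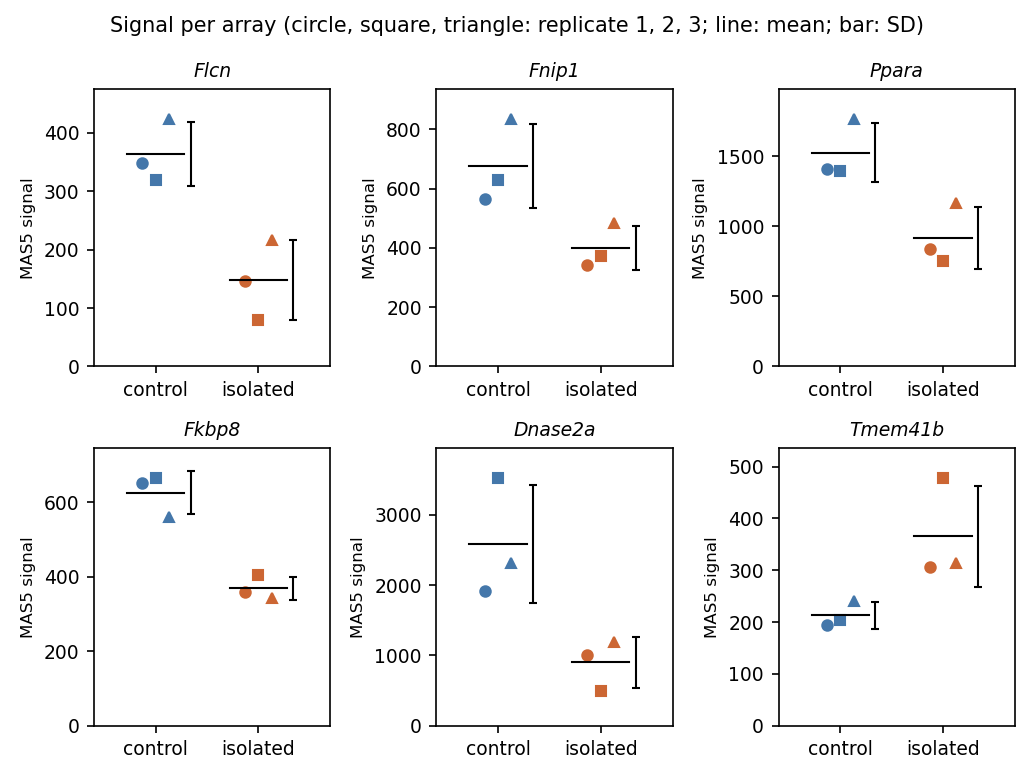
MAS5 signal on each array for the 5 further genes called lower and for Tmem41b, in controls and isolated mice. Symbols mark replicates 1 to 3, the line the mean and the bar the SD, and in each panel the groups do not overlap.

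The autophagosome, membrane protein and proton pump lists held no called gene. Of 27 further autophagosome genes, 17 lay above 0, and Tmem41b, a lipid scramblase of the endoplasmic reticulum needed for autophagosome formation, came closest. It read 193, 204 and 242 under control housing and 306, 478 and 313 after isolation, a log2 change of 0.75 with an adjusted p of 0.0541. A dimmer Tmem41b probe set was called higher (log2 change 1.16, adjusted p 0.0128), while 4 others gave -0.24 to 0.07. Atg14, which directs the phosphatidylinositol 3-kinase to sites of autophagosome formation, read 70, 111 and 116 against 66, 38.5 and 85.8 (log2 change -0.66, adjusted p 0.31).

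Of 35 tested lysosomal hydrolases, Dnase2a was the 1 call, and the median of the list was -0.05. Among 20 lysosomal membrane and cofactor genes the smallest p belonged to Tmem55b, annotated as Pip4p1, with a log2 change of -0.32 (adjusted p 0.678), followed by Igf2r with -0.22 (adjusted p 0.757). Among 15 subunits of the vacuolar proton pump, which acidifies lysosomes, Atp6v0a2 had 0.41 (adjusted p 0.433) and Atp6ap2 -0.20 (adjusted p 0.695). The medians of the membrane list and of the pump list were -0.07 and 0.00074.

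The 37 tested regulators were evenly split, with 19 above 0, 18 below and a median log2 change under 0.01. At an unadjusted limma p under 0.05, 4 were higher, all uncalled, and 5 were lower, of which 3 were called. Of all genes, 7.94% were higher and 4.4% lower at that p. The groups separated upward for 5 of the 37, against 10.8% of all genes, and downward for 4, against 5.17%. The 6 uncalled genes under that p were named after their values were seen, 4 higher and Rictor and Trp53inp1 lower. Ddit4, a stress-induced inhibitor of mTORC1, read 36.8, 42 and 72.6 under control housing and 85.6, 79 and 131 after isolation (log2 change 0.96, adjusted p 0.0701). Rragd, a Rag GTPase, read 8.34, 18.4 and 9.11 against 37.1, 28.3 and 26.1 (log2 change 1.28, adjusted p 0.156), with controls near or under the signal of 18 at which the filter on mean intensity stood. Rragd passed that filter only through its isolated arrays, and it is among the 4 higher genes and the 5 that separated upward. Lamtor1, a lysosomal anchor of the Rag proteins, read 1234, 1145 and 1489 against 1559, 1566 and 1813 (log2 change 0.36, adjusted p 0.31). Prkab1, a subunit of the energy sensor AMPK, had a log2 change of 0.45 (adjusted p 0.305). Rictor, the scaffold of mTORC2, read 111, 132 and 124 against 72.5, 84.7 and 112, a log2 change of -0.46 (adjusted p 0.401). Trp53inp1, which binds ATG8 proteins, had -0.75 (adjusted p 0.075).

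Genes of the fasting programme were read on the same arrays. Of 13 tested fasting-responsive liver genes, a list chosen with their direction known, 7 were called lower and 0 higher, against 0.847% and 0.901% of all genes. Pdk4, which blocks pyruvate oxidation in fasting, read 153, 679 and 408 under control housing and 17.5, 26.6 and 19.9 after isolation (log2 change -3.93, adjusted p 1.34e-06), and Igfbp1, Fgf21 and Angptl4 had log2 changes of -3.89, -2.69 and -2.07. Fgf21 read 16.5, 10.3 and 26 after isolation and passed the intensity filter only through its controls. The 6 uncalled genes of the list, Cpt1a, Acadm, Pck1, G6pc, Ppargc1a and Vnn1, had log2 changes of -0.66 to -0.08. G6pc, Pck1 and Ppargc1a among them had an unadjusted limma p under 0.05. All 13 tested genes of the list lay below 0, against 41.6% of all genes. Of the 13, 10 were lower at that p, against 4.4% of all genes, and 9 separated downward, against 5.17%. Of the autophagy and lysosome members, which share those arrays, the largest size of log2 change was 0.64 and 0 passed. Whether the members responded less than the fasting list was not tested, since the latter was chosen for its change.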

How the data were processed

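Liver RNA, prepared with TRIzol and an RNeasy kit, was biotin-labelled for Affymetrix arrays, per the labels' protocols. The deposited intensity values came from MAS5, per the submitters' processing notes. The scaling target, MAS5 version and detection calls were not stated there. The table held 45101 probe sets, of which 64 were controls. A pseudocount of 2 (the 10th percentile of values, rounded) was added before log2, the deposited scale was kept, and the upper 50% by mean log2 value were tested (22519, floor 4.32). A 2-group model was fitted with limma 3.58.1 in R 4.3.3, with eBayes variances moderated by an intensity trend whose prior carried 16.1 degrees of freedom beside 4 residual ones, so genes that vary more than the trend get a smaller SE. Tests were two-sided. Symbols came from the platform annotation, and 932 probe sets with several symbols named no gene. The procedure was tested on simulated data. Same-numbered arrays correlated at 0.0078, 0.044 and 0.0049 in their deviations from the group means, taken over probe sets. Such a correlation cannot show a shift shared by a whole array, so whether replicate numbers pair the arrays is not known. The members and lists were chosen with earlier results of these data known. Named genes were those with the 2 smallest p per role list, the ATG8 family, members whose probe sets disagree with 1 under p 0.05, and called genes of the other lists, or else the 2 smallest p. Other members are given by value where their groups separated or their role called for it. Alternatives covered pseudocount, filter, normalization, variance model, array weights, replicate block, probe set per gene, threshold and each array left out. With 3 arrays per group, their number limits the precision. Figures were drawn with matplotlib 3.10.9.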

Additional observations from a re-analysis of the deposited data

How the results depend on the processing

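The count of members called higher was 0 in the fit as reported and under every alternative. That of members called lower was 2 with quantile normalization (Gabarapl1 and Bnip3) and 0 to 1 with each array left out in turn (Gabarapl1, without isolated replicate 3). With the replicate block, a pairing that the correlations over probe sets did not show and could not exclude, the count of members called lower was 1 (Gabarapl1, limma adjusted p 0.0266). This count was 0 under every other alternative. Of the further autophagy and lysosome genes, 5 were called lower. The count was 3 without a filter, 0 without the intensity trend, 3 with a robust trend and 2 to 6 with 1 array left out. Calls higher numbered 1 with a pseudocount of 16 (Tmem41b) or median centring (Ddit4), and 2 (both of these) with the upper 30% tested, a robust trend, array weights, the replicate block or a threshold of 0.1, and 0 to 1 with 1 array left out. Over all tested probe sets 174 were higher and 193 lower. Higher calls numbered 81 without a filter, 264 with the upper 30%, 15 without the trend, 265 with the replicate block, 303 at a threshold of 0.1, 90 without isolated replicates 2 and 3, and 97 to 200 with 1 array left out. Lower calls numbered 101 without a filter, 16 without the trend and 82 to 246 with 1 array left out. The log2 change of Gabarap, 0.04, turned to -0.03 without control replicate 2 and -0.054 without isolated replicate 3, and that of Wipi1, -0.14, to 0.020 without isolated replicate 2. With 1 array left out in turn they ranged from -0.054 to 0.14 and from -0.41 to 0.020. Uncalled values that rest much on single arrays were Ulk1 (-0.81 to -0.0061), Tfeb (0.10 to 1.20), Atg2a (-0.75 to -0.31) and Atg13 (0.017 to 0.55). With the tested probe sets of each gene averaged, some log2 changes also turned sign. Atg13 went from 0.29 to -0.25, Wipi2 from 0.06 to -0.17 and Atg3 from 0.10 to -0.07. Atg7 went from -0.08 to 0.20, Becn1 from -0.01 to 0.14 and Lipa from -0.02 to 0.05. Tfeb gave no value with the upper 30%. The cause of these shifts was not tested. Low signal limits Tfeb, whose interval of -0.14 to 1.43 spans both directions.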

Other observations

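Below the intensity filter, and so untested, stood 11 probe sets of the members. Among them a dim probe set of Map1lc3b read 12.3, 21.6 and 26 under control housing and 4.58, 2.22 and 3.71 after isolation, and one of Atg7 read 1.55, 0.785 and 10.3 against 15.1, 18.9 and 22. Both separated the groups, downward and upward, while the probe sets that represent these genes had log2 changes of -0.17 and -0.08. The other tested probe sets of Map1lc3b gave -0.30 and -0.34, and the other tested one of Atg7, also dim, gave 0.49. No detection calls are at hand, so whether these dim probe sets read their gene is not known.

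The other main route of protein breakdown, the proteasome, was read by 14 tested genes of its 20S core. Of these 0 were called, 1 lay below 0, against 41.6% of all genes, and the median log2 change was 0.08, against 0.05 over all genes. Psma1, a subunit of the outer ring, read 1192, 1161 and 1370 under control housing and 1434, 1492 and 1650 after isolation, a log2 change of 0.30 with a limma adjusted p of 0.417. It was the 1 core gene of 14 whose groups did not overlap, and 10.8% of all genes separated in that direction.

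Trp53inp1 read 435, 703 and 737 under control housing and 295, 339 and 469 after isolation. Its log2 change was -0.75 with a limma adjusted p of 0.075, and it passed with the upper 30% tested (0.0254), with array weights (0.0301), without control replicate 1 (0.0124), without isolated replicate 3 (0.0275), without isolated replicates 2 and 3 together (0.0129) and with the replicate block (0.0130), and it was under a threshold of 0.1 in the fit as reported. It did not pass under the other alternatives run.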
